A study of Mus musculus with 2 samples.

Results

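The 36 cell cycle genes described here are a fixed list of genes whose transcripts are made by dividing cells. They were taken by symbol from a list put together with earlier results of these data known, and not by a limit on any value. All 36 were found among the 31253 genes listed for 2 single-cell RNA-seq libraries of immune cells from mouse melanoma. Of the 36 genes, 14 act in S phase, when DNA is copied, 21 act in G2 or mitosis, and *Stmn1*, which encodes a protein that takes microtubules apart, was counted in neither group. Summed over all cells kept, the members had 128502 unique molecular identifiers (UMIs, each a tag of 1 captured mRNA molecule) in the *Irg1*+/+ library, or 3052 counts per 1000000 UMIs (CPM, 95% interval 3035 to 3069), and 85987 in the library labelled *Irg1*-/-, or 2435 CPM (2419 to 2452).

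A cell that is about to divide leaves G1, copies its DNA in S phase, passes through G2 and separates its chromosomes in mitosis. E2F factors switch on genes for nucleotide synthesis and replication before S phase, and later a complex of B-MYB or FOXM1 with MuvB switches on genes for the spindle and chromosome segregation. In tumors, T cells can divide after contact with antigen, macrophages and dendritic cells can keep dividing in the tissue, whereas neutrophils and eosinophils are end-stage cells that no longer divide.

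The libraries hold CD45+ cells sorted from tumors that had grown from the mouse melanoma line B16-F10 for 10 days after 200000 cells had been injected under the skin of C57BL/6J mice. One library came from *Irg1*+/+ mice and the other from mice labelled *Irg1*-/-, a whole-body knockout on the C57BL/6J background, and both genotypes received the same tumor cells and no other agent. Each library pools pieces of 100 mm3 from the tumors of 3 mice, females of 8 to 10 weeks in the study's methods, and there is thus a single library, without replicates, for either genotype. The comparison of the libraries asks how dividing immune cells were spread over cell types in tumors of either genotype. No test between the genotypes is possible. The intervals given throughout are at 95% and cover counting error only, which PCR copies do not enter since UMIs were counted. Intervals of CPM, of ratios of CPM and of S shares take each UMI as independent. They do not cover the spread between cells, although in some gates few cells held much of the member UMIs.

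The promoters of the members carry the letters known for these factors at unequal rates in the S and G2/M groups, and a few are shown for that reason. RefSeq (GRCm38.p6) gave a promoter, from 250 bases before to 50 bases after the start, for 30 of the 36 members. TTTGAA, the letters of the cell cycle homology region (CHR) at which MuvB complexes bind, was found on either strand in 13 of 18 G2/M promoters (72.2%), 1 of 12 S promoters (8.33%) and 17.9% of all 32851 promoters. CCAAT, the letters of NF-Y, was found in 15 of 18 (83.3%), 9 of 12 (75%) and 37.4%. Both sets of letters together were found in 12 of 18 G2/M promoters (66.7%) against 6.95% of all. The E2F letters TTTCCCGC, TTTCGCGC, TTTGCCGC or TTTGGCGC were found in 1 of 18 G2/M promoters (5.56%), 5 of 12 S promoters (41.7%) and 2.26% of all. Each member was counted once, with a match in any of its promoters, whereas all promoters were counted singly, so these rates are not quite alike. A match of letters is a description and not a site. In the 170 bases before the start shown next, from 5′ to 3′ on the strand of the gene, capitals mark E2F letters for *Mcm6* (chr1:128359706-128359875, minus strand) and *Mcm5* (chr8:75109339-75109508, plus strand), which encode subunits of the replicative helicase, and in both genes 2 matches on opposite strands overlap. For *Cdk1* (chr10:69352913-69353082, minus strand), the kinase that starts mitosis, *Cdc20* (chr4:118437344-118437513, minus strand), the activator of the ligase that ends metaphase, and *Kif11* (chr19:37376212-37376381, plus strand), a spindle motor, capitals mark TTTGAA or its reverse complement TTCAAA, the nearest of which ended 10, 13 and 14 bases before the start. *Cdk1* also holds E2F letters, left here in lower case.
Mcm6: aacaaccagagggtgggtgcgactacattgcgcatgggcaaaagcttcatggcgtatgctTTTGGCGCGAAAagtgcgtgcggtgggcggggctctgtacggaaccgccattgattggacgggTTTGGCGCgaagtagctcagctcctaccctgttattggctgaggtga
Mcm5: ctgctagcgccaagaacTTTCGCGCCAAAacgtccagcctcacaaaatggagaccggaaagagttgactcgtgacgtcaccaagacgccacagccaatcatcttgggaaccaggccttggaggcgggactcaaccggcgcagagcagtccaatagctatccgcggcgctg
Cdk1: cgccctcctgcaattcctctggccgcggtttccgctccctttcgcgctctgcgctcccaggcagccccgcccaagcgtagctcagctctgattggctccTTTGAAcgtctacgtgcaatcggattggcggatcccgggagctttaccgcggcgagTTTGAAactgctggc
Cdc20: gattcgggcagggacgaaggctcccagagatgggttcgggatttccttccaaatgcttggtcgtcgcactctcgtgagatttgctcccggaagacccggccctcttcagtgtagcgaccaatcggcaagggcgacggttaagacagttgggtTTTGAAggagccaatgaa
Kif11: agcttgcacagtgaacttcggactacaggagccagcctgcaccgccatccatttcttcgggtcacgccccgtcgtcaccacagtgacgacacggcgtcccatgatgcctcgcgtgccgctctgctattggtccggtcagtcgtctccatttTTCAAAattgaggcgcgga
By the annotation of GRCm38, the 36 genes lie on 15 chromosomes, with 7 of them on chromosome 2, among which are *Pcna* (132249162 to 132253314) and *Bub1* (127801122 to 127831865).

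The files held 6408 cells with 43617546 UMIs for *Irg1*+/+ and 5896 cells with 36432067 UMIs for the library labelled *Irg1*-/-. Of these, 6284 and 5794 cells with under 10% mitochondrial UMIs were kept, at medians of 4528 and 4594.5 UMIs. Cells were placed in a cell type only by marker genes that are not cell cycle genes, and 3859 and 3633 cells fell into the 5 gates compared. T cells (*Cd3d*, *Cd3e*, *Cd3g*, *Trac*) numbered 1063 and 598, natural killer (NK) cells 362 and 659, dendritic cells 890 and 864, monocytes 780 and 889, and macrophages 764 and 623. The gates were checked by their markers. In the *Irg1*+/+ library *Trac* had 1493 CPM in the T gate and 169 in the next highest gate, *Ncr1* 384 in the NK gate and 6.36 in the next, and *C1qb* 3224 in the macrophage gate and 382 in the next. A further 72 and 190 neutrophils, with 63 and 137 eosinophil-like granulocytes, served as background, and 2032 (32.3%) and 1668 (28.8%) cells met no gate. The 2 files shared 36 cell barcodes, of which 24 and 21 were in the 5 gates.

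2 features of the libraries bear on every comparison between them. *Acod1*, the gene called *Irg1* in the labels, was not lower throughout in the library labelled *Irg1*-/-. It had 2095 CPM in neutrophils of the *Irg1*+/+ library and 1608 in the other, 161 and 125 in monocytes, and 87.6 and 134 in macrophages. The UMIs tag the 3′ end of the mRNA and do not show whether the deleted part was transcribed, so each direction below rests on the labels. The other feature is melanoma RNA. *Pmel*, *Mlana*, *Dct*, *Tyrp1* and *Tyr*, pigment genes of the tumor cells that a CD45 sort should remove, summed to 144 CPM in T cells of the *Irg1*+/+ library and 38.9 in the other, 135 and 33.3 in NK cells, 157 and 45.9 in dendritic cells, 137 and 36.5 in monocytes, 176 and 85.5 in macrophages, and 192 and 35.1 in neutrophils. No marker of the 5 was at 0 in any of the 5 gates but for 1 in NK cells of the library labelled *Irg1*-/-. *Dct* was the most abundant, with 81.5 and 38.3 CPM in macrophages. Melanoma cells themselves, gated as 111 and 21 cells, had 2370 and 2116 CPM of the cell cycle genes, and the part of their RNA in the values of other gates was not tested for each gene.

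Cells with 3 or more UMIs of the 36 genes were found in every gate. In T cells they made up 83.9% (81.6 to 86.1) for *Irg1*+/+ and 76.4% (72.8 to 79.8) for the library labelled *Irg1*-/-. In NK cells the shares were 71.5% (66.6 to 76.1) and 61.8% (57.9 to 65.5), in dendritic cells 78.9% (76.0 to 81.5) and 75.1% (72.1 to 78.0), in monocytes 63.8% (60.4 to 67.2) and 60.97% (57.7 to 64.2), and in macrophages 81.7% (78.8 to 84.4) and 81.1% (77.8 to 84.1). The gates differed in depth as well, and the median cell had 10131 and 9453 UMIs in the macrophage gate but 2901 and 2675 in the NK gate. Neutrophils, which do not divide, reached 18.1% (9.98 to 28.9) and 17.9% (12.7 to 24.1) at medians of 1650 and 1866 UMIs.

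When each cell was thinned to 2000 UMIs and shallower cells were left out, T cells stood apart. The share of cells with 3 or more member UMIs was then 67.1% (64.0 to 70.1; 927 cells) and 69.9% (65.5 to 73.9; 481) in T cells, 50.2% (44.4 to 55.9; 303) and 45.2% (40.8 to 49.6; 516) in NK cells, and 47.0% (43.0 to 51.0; 628) and 31.2% (27.3 to 35.3; 545) in macrophages. Dendritic cells had 36.4% (33.1 to 39.9; 793) and 27.9% (24.9 to 31.2; 798), and monocytes 21.9% (18.9 to 25.1; 713) and 16.1% (13.6 to 18.8; 815). Neutrophils had 13.6% (2.91 to 34.9) of 22 cells and 13.2% (6.49 to 22.9) of 76 cells, and in both libraries the monocyte share lay within this interval.

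**Figure D1:**
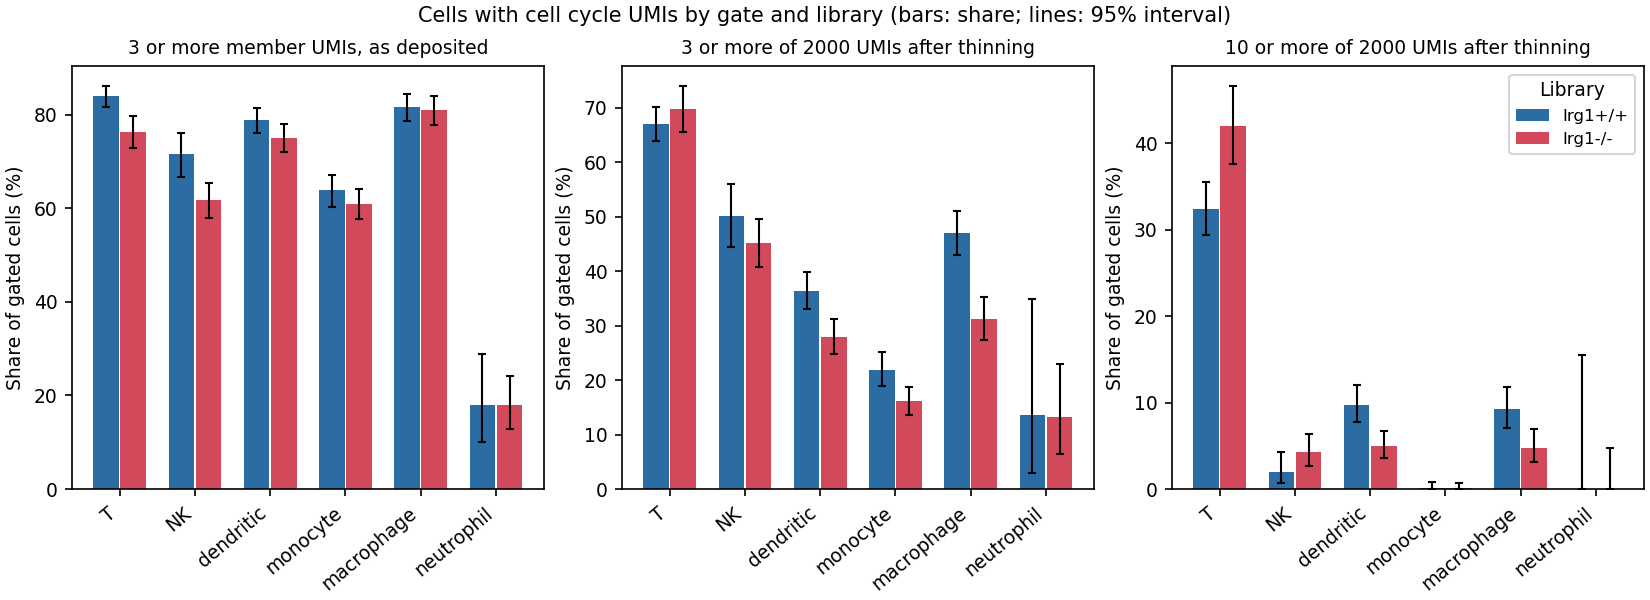
Share of gated cells (percent, vertical axis) with cell cycle UMIs, by gate (horizontal axis) and library (color), with 3 or more member UMIs as deposited (left), 3 or more of 2000 UMIs after thinning (middle) and 10 or more of 2000 (right). Bars start at 0 and lines are exact 95% intervals of counting error. T cells lead after thinning, with 32.4% and 42.0% in the right panel, and monocytes and neutrophils are at or near 0 there.

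A limit of 3 UMIs still admitted cells of all kinds, so cells with 10 or more member UMIs of 2000 were described as member-high cells, a limit set after the counts had been seen. They were 32.4% (29.4 to 35.5) of *Irg1*+/+ T cells, or 300 cells, and 42.0% (37.5 to 46.5), or 202 cells, of T cells labelled *Irg1*-/-. Of dendritic cells they were 9.71% (7.74 to 11.99; 77 cells) and 5.01% (3.60 to 6.76; 40 cells), of macrophages 9.24% (7.09 to 11.8; 58 cells) and 4.77% (3.14 to 6.91; 26 cells), and of NK cells 1.98% (0.73 to 4.26; 6 cells) and 4.26% (2.69 to 6.38; 22 cells). Only 1 monocyte in each library reached the limit, 0.14% and 0.12%. No neutrophil did, and 0 of 22 and 0 of 76 cells allow a share of up to 13.6% and 3.95%, from 3 counts of the total, and the Clopper-Pearson bounds are 15.4% and 4.74%. Near the limit, 71 and 38 T cells had 8 to 12 member UMIs of 2000, while 181 and 117 had 20 or more. In macrophages 38 and 17 cells were near the limit and 13 and 11 were at 20 or more.

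Member UMIs per cell were spread widely in T cells and narrowly in monocytes. The median T cell had 20.2 and 21.2 member UMIs per 10000, and the 90% quantile was 134 and 131. In dendritic cells the median was 9.55 and 7.63 and the 90% quantile 41.4 and 22.1, and in macrophages the median was 10.9 and 8.45 and the 90% quantile 43.9 and 27.2. NK cells had medians of 12.9 and 11.3 with a 90% quantile of 25.6 and 24.5, and monocytes medians of 7.19 and 6.30 with a 90% quantile of 13.51 and 12.99, near the medians of neutrophils at 6.79 and 5.66. Above 100 member UMIs per 10000 lay 19.0% and 22.6% of T cells, 0.28% and 2.12% of NK cells, 3.37% and 1.27% of dendritic cells, 0.92% and 1.44% of macrophages and no monocyte or neutrophil. An upper tail was thus seen in T cells, dendritic cells and macrophages, and in NK cells of the library labelled *Irg1*-/- in a few cells past the 90% quantile.

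**Figure D2:**
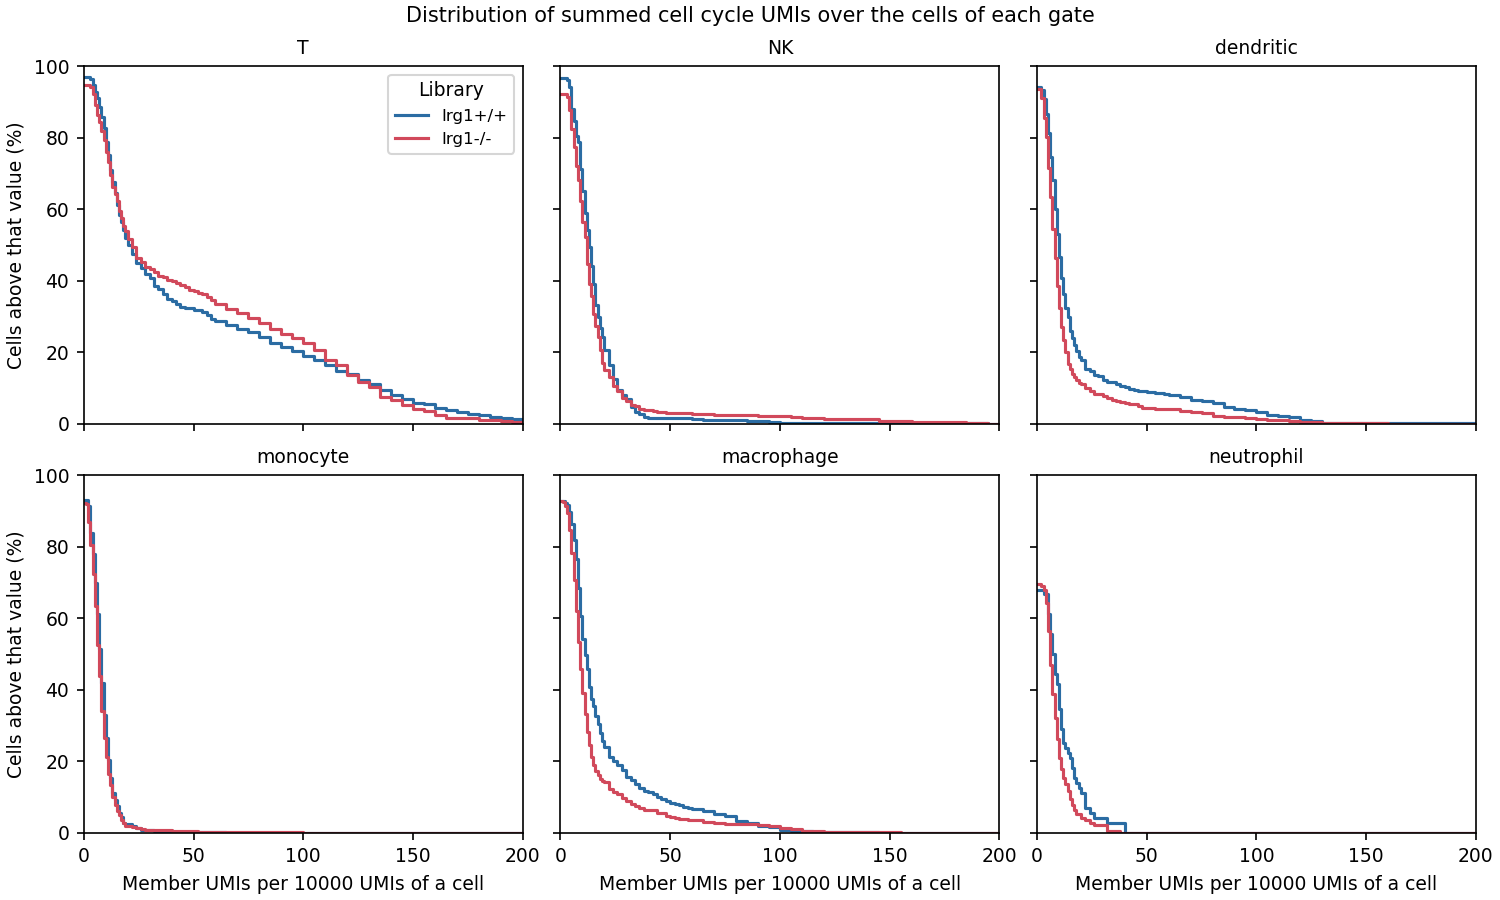
Percent of cells of a gate (vertical axis) above a given number of member UMIs per 10000 UMIs of the cell (horizontal axis), for 6 gates and both libraries (color). T cells keep a shoulder of cells far to the right, dendritic cells, macrophages and NK cells a smaller tail, and no monocyte or neutrophil lies above 100.

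The member-high cells held most of the cell cycle RNA of T cells and less of it elsewhere. They carried 88.0% and 90.8% of the member UMIs of all T cells, shallower cells included. It was 61.4% and 47.0% in dendritic cells, 45.1% and 37.3% in macrophages, and 23.8% and 54.3% in NK cells. In the other cells of the gate the members had 1983 and 2194 CPM in T cells, 1357 and 1228 in NK cells, 1194 and 962 in dendritic cells, 1511 and 1134 in macrophages, and 769 and 707 in monocytes. Member-high cells were also deeper than the rest, with medians of 13082 against 3938 UMIs in T cells of the *Irg1*+/+ library and 14296.5 against 3547 in the other. Of the member-high T cells 4% and 7.92% were among the cells with the top 5% of doublet scores, and of the other T cells 2.55% and 4.30%. In the NK gate it was 16.7% and 13.6% against 2.69% and 3.24%. Their part in these values was not tested.

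As summed CPM, over all UMIs of a gate, T cells had 7388 (7328 to 7448) for *Irg1*+/+ and 8018 (7939 to 8098) for the library labelled *Irg1*-/-. Dendritic cells had 2554 (2517 to 2591) and 1655 (1625 to 1686), macrophages 2351 (2320 to 2382) and 1669 (1638 to 1701), and NK cells 1722 (1652 to 1794) and 2366 (2303 to 2431). Monocytes had 776 (749 to 803) and 722 (699 to 746), next to neutrophils at 741 (612 to 889) and 676 (600 to 758) and eosinophil-like granulocytes at 1087 (912 to 1285) and 1007 (894 to 1130). The order in the *Irg1*+/+ library was T, dendritic, macrophage, NK and monocyte, and in the other library T, NK, macrophage, dendritic and monocyte, where macrophages and dendritic cells did not differ beyond their intervals (log2 ratio of dendritic to macrophage -0.01, -0.05 to 0.03). Against neutrophils, T cells were 9.93-fold and 11.9-fold higher, dendritic cells 3.43-fold and 2.45-fold, macrophages 3.16-fold and 2.47-fold, and NK cells 2.31-fold and 3.50-fold. The monocyte value was 1.04-fold (log2 0.06, -0.20 to 0.35) and 1.07-fold (0.09, -0.08 to 0.27) of the neutrophil value, so that monocytes could not be told from the background.

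T cells were the highest of the 5 gates for 35 of the 36 genes in the *Irg1*+/+ library and for 36 of 36 in the other, and monocytes were the lowest for 35 of 36 in each, with NK cells lowest for *Anln* in the first and *Aurka* in the second. The exception at the top was *Anln*, which encodes the ring scaffold anillin, with 22.1 CPM in macrophages and 17.3 in T cells of the *Irg1*+/+ library and 15.8 and 22.1 in the other. Over the S members, the log2 ratio of T cells to macrophages had a median of 1.57 (lowest 0.65, highest 2.86) for *Irg1*+/+ and 2.30 (1.15 to 3.69) for the other library, and over the G2/M members it was 1.69 (-0.35 to 2.78) and 2.29 (0.49 to 3.26). Against NK cells the G2/M members had a median of 3.05 in the *Irg1*+/+ library and 2.12 in the other, and the S members 1.94 and 1.798.

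**Figure D3:**
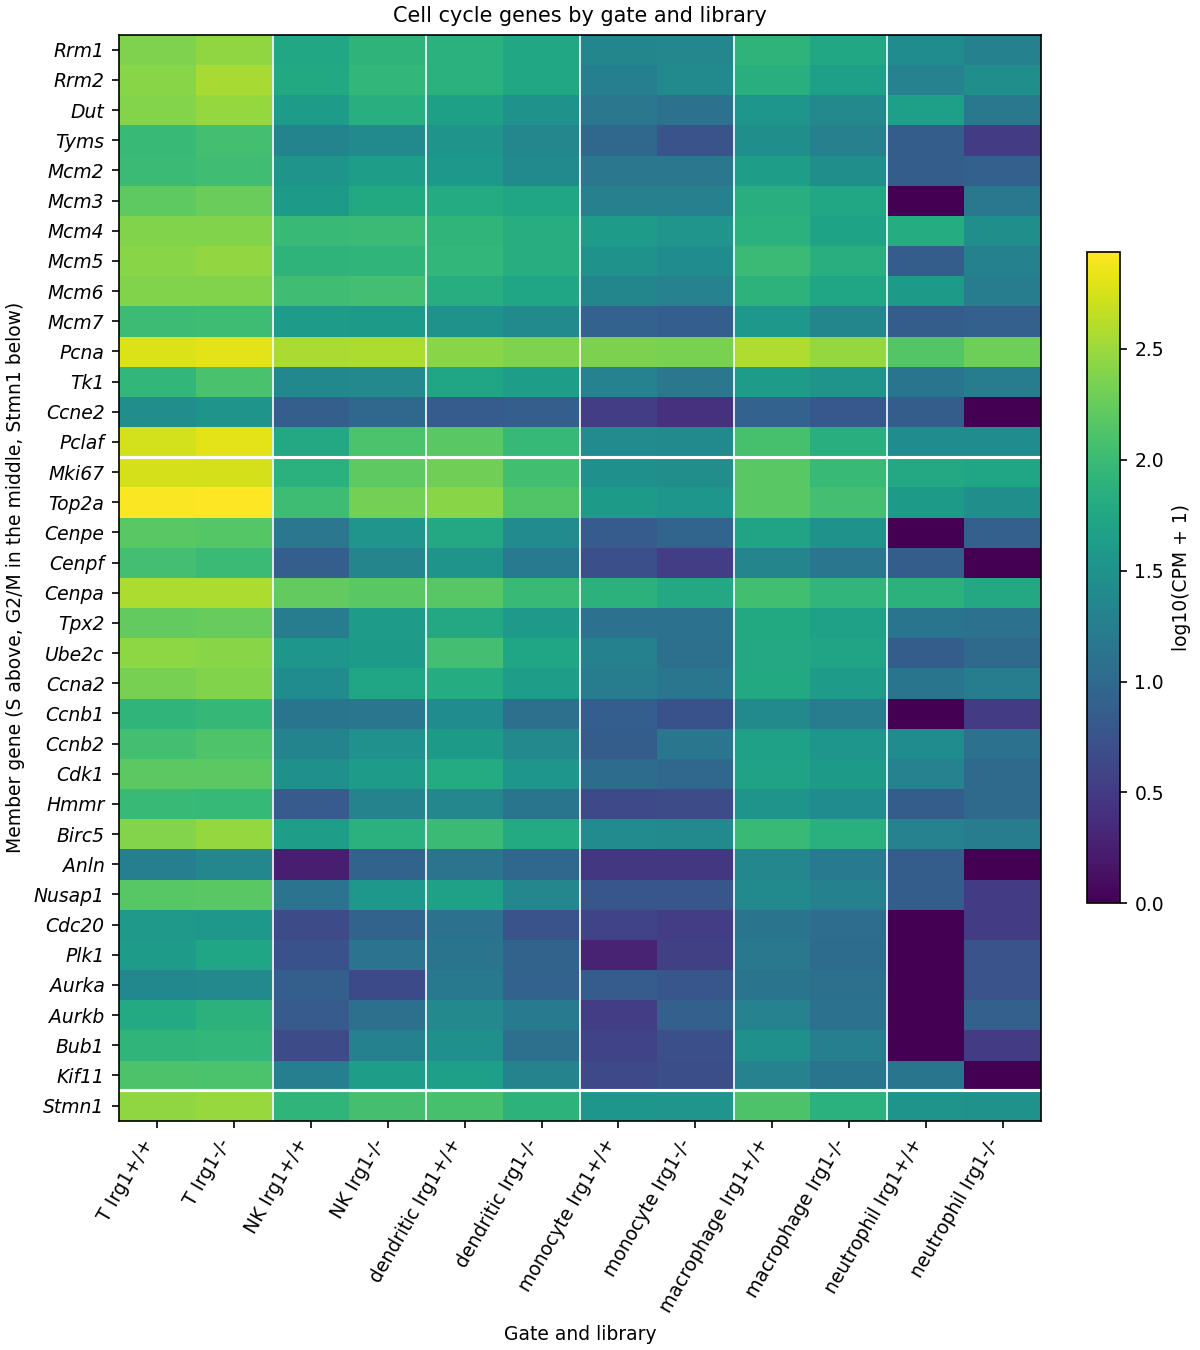
CPM of each member (rows, S genes above, G2/M genes in the middle, *Stmn1* at the bottom) in 6 gates and both libraries (columns), as log10 of CPM plus 1 (color). The T columns are brightest in all rows but *Anln*, and the monocyte columns resemble the neutrophil columns. Colors are not to be compared between rows, since genes differ in how well their ends are captured.

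Among the S members, those of nucleotide synthesis varied more between cell types than *Pcna*, the sliding clamp of DNA polymerases. *Rrm2*, the small subunit of ribonucleotide reductase, had 261 and 358 CPM in T cells, 60.4 and 86.3 in NK cells, 74.2 and 56.9 in dendritic cells, 17.6 and 24.3 in monocytes and 69.7 and 44.2 in macrophages. *Pcna* had 596 and 650 in T cells, 369 and 375 in NK cells, 259 and 231 in dendritic cells, 227 and 221 in monocytes and 381 and 293 in macrophages, and even neutrophils had 141 and 192. The clamp gene was thus found in every cell type, neutrophils included, while *Rrm2* was far lower in monocytes than in T cells. *Rrm1*, the large subunit of the same enzyme, had 230 and 277 CPM in T cells and 21.3 and 21.9 in monocytes. *Dut*, which removes dUTP, had 245 and 298 against 13.45 and 11.3, *Tyms*, thymidylate synthase, 97.3 and 112 against 8.56 and 4.66, and *Tk1*, thymidine kinase, 87.9 and 123 against 18.8 and 13.6. All 4 were higher in T cells than in monocytes in both libraries.

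The 6 helicase genes *Mcm2* to *Mcm7*, loaded on DNA before S phase, were each highest in T cells and lowest in monocytes. *Mcm5* had 257 and 285 CPM in T cells, 80.8 and 82.3 in NK cells, 87.0 and 66.9 in dendritic cells, 31.1 and 25.7 in monocytes and 100.3 and 70.9 in macrophages. *Mcm6* had 238 and 241 in T cells and 108 and 115 in NK cells, and *Mcm4* had 238 and 240 and 95.9 and 98.5. The other 3, *Mcm2*, *Mcm3* and *Mcm7*, had 99.7 to 183 CPM in T cells and 6.49 to 18.1 in monocytes. *Pclaf*, which binds the clamp, was the S member with the highest ratio of T to NK cells in the *Irg1*+/+ library (log2 3.19), at 540 and 654 CPM in T cells, 58.9 and 125 in NK cells, 150 and 91.6 in dendritic cells, 25.2 and 23.5 in monocytes and 119 and 70.9 in macrophages. *Ccne2*, the cyclin E2 of S phase entry, was the sparsest S member, with 27.5 and 31.9 CPM in T cells and 1.62 to 8.54 in the other 4 gates.

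Among the G2/M members, *Top2a*, which untangles replicated DNA, had 834 and 861 CPM in T cells, 105 and 209 in NK cells, 262 and 136 in dendritic cells, 39.1 and 34.3 in monocytes and 151 and 113 in macrophages. *Mki67*, the coat of mitotic chromosomes, had 559 and 550 in T cells, 74.8 and 162 in NK cells, 196 and 110 in dendritic cells, 28.6 and 27.2 in monocytes and 152 and 97.7 in macrophages. In neutrophils *Mki67* had 57.5 and 53.8 CPM and *Top2a* 38.3 and 28.0, so that monocytes were below them for the first gene and near them for the second. *Cenpa*, the histone of centromeres, was less restricted to T cells, with 378 and 379 CPM in T cells, 168 and 151 in NK cells, 146 and 94.6 in dendritic cells, 75.1 and 57.4 in monocytes and 112 and 85.5 in macrophages.

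The drivers of mitosis were likewise highest in T cells. *Cdk1* had 157 and 156 CPM in T cells, 28.7 and 40.01 in NK cells, 63.0 and 34.3 in dendritic cells, 10.0 and 8.92 in monocytes and 48.6 and 38.9 in macrophages, and its cyclin partners *Ccna2*, *Ccnb1* and *Ccnb2* had 82.7 to 237 in T cells and 4.46 to 16.6 in monocytes. The mitotic kinases *Plk1*, *Aurka*, *Aurkb* and *Bub1* had 22.7 to 86.0 CPM in T cells and 0.98 to 6.89 in monocytes, where *Plk1* had 0.98 and 2.63. *Ube2c* and *Cdc20*, which act with the ligase that destroys the cyclins, had 271 and 260 and 37.7 and 35.4 in T cells, and *Birc5*, survivin, had 245 and 298. The spindle and kinetochore genes *Cenpe*, *Cenpf*, *Tpx2*, *Hmmr*, *Nusap1* and *Kif11* lay between 91.9 and 177 CPM in T cells and between 2.43 and 11.5 in monocytes. *Stmn1* had 283 and 303 CPM in T cells, 83.1 and 116 in NK cells, 120 and 77.7 in dendritic cells, 33.8 and 33.2 in monocytes and 130 and 74.1 in macrophages.

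The S members' share of the UMIs of S and G2/M members differed between cell types. In T cells it was 44.7% (44.3 to 45.1) and 47.5% (47.0 to 48.0), in dendritic cells 43.5% (42.8 to 44.2) and 52.2% (51.3 to 53.2), in macrophages 52.3% (51.6 to 52.9) and 51.5% (50.6 to 52.5), in NK cells 62.8% (60.7 to 64.8) and 54.6% (53.2 to 56.0), and in monocytes 62.7% (60.9 to 64.4) and 63.5% (61.8 to 65.1). Neutrophils had 56.8% (47.0 to 66.1) and 60.1% (54.1 to 66.0). Within the member-high cells the share was 42.5% and 46.3% in T cells, 34.7% and 40.6% in dendritic cells, 41.1% and 31.3% in macrophages and 43.3% in the 22 NK cells of the library labelled *Irg1*-/-. It was lower in member-high cells than over all cells in the T, dendritic and macrophage gates of both libraries.

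**Figure D4:**
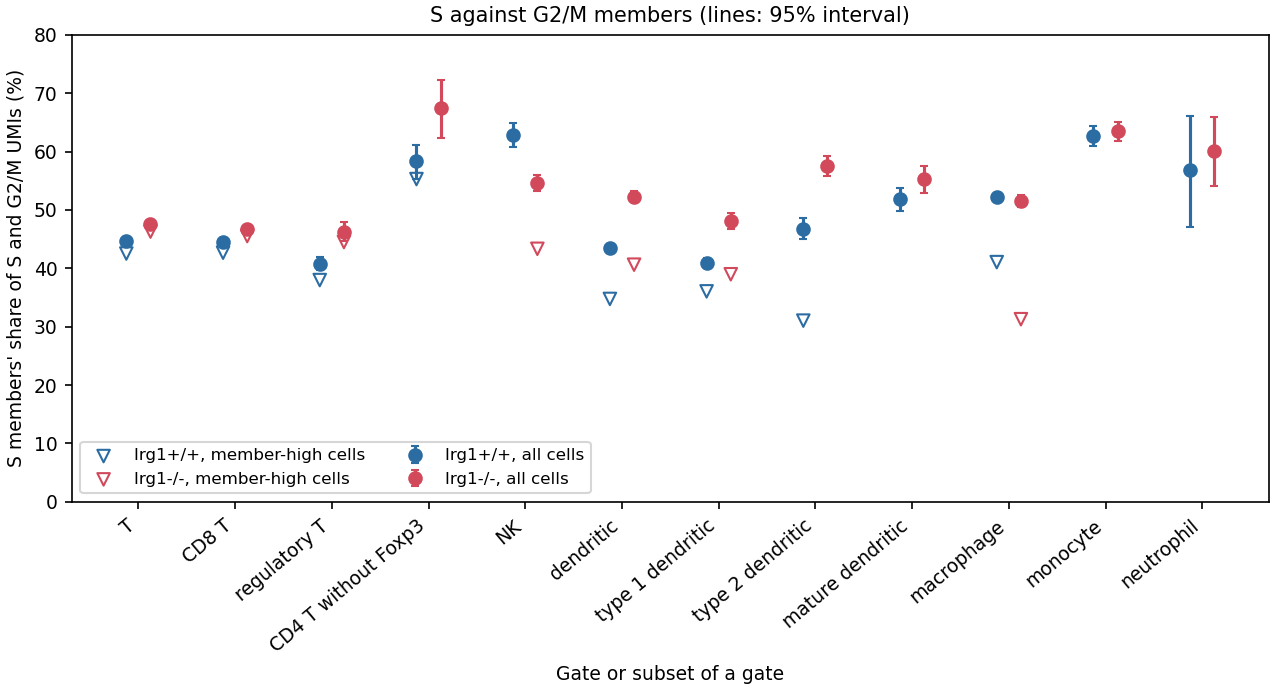
S members' share of the UMIs of S and G2/M members (percent, vertical axis) by gate or subset (horizontal axis) and library (color), over all cells (filled circles with exact 95% intervals) and over member-high cells alone (open triangles, where there are 10 or more such cells). In the T, dendritic and macrophage gates the triangles lie below the circles, at 34.7% and 40.6% in dendritic cells and 41.1% and 31.3% in macrophages.

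Most member-high cells held UMIs of both S and G2/M members. In 54.0% and 53.5% of those in the T gate G2/M UMIs outnumbered S UMIs, and in 70.1% (58.6 to 80.03) and 55.0% (38.5 to 70.7) of those in the dendritic gate, while in the macrophage gate it was 65.5% (51.9 to 77.5) and 73.1% (52.2 to 88.4). UMIs of both groups were found in 98.3% and 99.01% of member-high T cells, 89.6% and 97.5% of member-high dendritic cells and 98.3% and 100% of member-high macrophages. No phase was assigned to single cells.

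The CD8 cells (*Cd8a*, *Cd8b1*) were the largest source of the T cell values among the subsets. They were 39.8% and 40.6% of T cells but 54.7% (48.8 to 60.4) and 62.9% (55.8 to 69.5) of the member-high T cells. Of CD8 cells 41.3% (36.4 to 46.3; 164 cells) and 57.5% (50.7 to 64.1; 127 cells) were member-high, against 22.2% (16.5 to 28.8; 42 cells) and 27.9% (18.8 to 38.6; 24 cells) of regulatory T cells (*Foxp3*) and 12.5% (6.16 to 21.8; 10 cells) and 2.08% (0.05 to 11.1; 1 cell) of CD4 cells without *Foxp3*. Summed CPM was 8166 and 8825 in CD8 cells, 6013 and 6192 in regulatory T cells and 3417 and 1492 in CD4 cells without *Foxp3*. These last cells thus went the other way from the CD8 cells between the libraries, with a difference in the member-high share of -10.4 percentage points (-19.6 to 0.01) against 16.2 (7.94 to 24.1). T cells in none of these subsets were 31.0% and 29.4% of the gate and 28.0% and 24.8% of its member-high cells. Of them 32.2% and 39.7% were member-high, at a summed CPM of 7444 and 8542, between CD8 cells and regulatory T cells. Subsets were called on UMIs before thinning, and depth differed. Medians were 5962 and 9274 UMIs in CD8 cells and 2854 and 2161 in CD4 cells without *Foxp3*. The part of depth was not tested.

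Among dendritic cells, the type 1 cells (*Xcr1*, *Clec9a*), which take up dead cells and present their antigens to CD8 cells, held most member-high cells. They were 29.1% and 21.8% of the gate but 77.9% (67.0 to 86.6) and 70.0% (53.5 to 83.4) of its member-high cells. The member-high share was 25.5% (20.1 to 31.6; 60 cells) and 15.7% (10.7 to 21.9; 28 cells) in type 1 cells, 5.56% (2.90 to 9.50; 12 cells) and 2.73% (1.25 to 5.11; 9 cells) in type 2 cells (*Cd209a*, *Zbtb46*), and 1.46% (0.48 to 3.38; 5 cells) and 1.03% (0.21 to 2.99; 3 cells) in mature cells (*Ccr7*, *Fscn1*). Mature cells had 1082 and 896 CPM, and type 1 cells 4030 and 2868. Classical monocytes had 763 and 717 CPM and nonclassical monocytes 805 and 734, beside 741 (612 to 889) and 676 (600 to 758) in neutrophils.

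Between the libraries, the direction of the difference in lymphocytes depended on the measure. The share of cells with 3 or more member UMIs was lower in the library labelled *Irg1*-/- in T cells, by -7.49 percentage points (-11.6 to -3.51), and in NK cells, by -9.79 (-15.6 to -3.72). It differed by -3.76 (-7.69 to 0.18) in dendritic cells, -2.88 (-7.51 to 1.78) in monocytes and -0.62 (-4.78 to 3.47) in macrophages. After thinning it differed by 2.76 (-2.41 to 7.76) in T cells, -5.01 (-12.03 to 2.06) in NK cells and -8.50 (-13.04 to -3.91) in dendritic cells. In monocytes it then differed by -5.81 (-9.77 to -1.87) and in macrophages by -15.8 (-21.2 to -10.2). The log2 ratio of summed CPM, library labelled *Irg1*-/- over *Irg1*+/+, was 0.12 (0.10 to 0.14) in T cells and 0.46 (0.39 to 0.53) in NK cells, but -0.63 (-0.66 to -0.59) in dendritic cells, -0.49 (-0.53 to -0.46) in macrophages and -0.10 (-0.17 to -0.03) in monocytes. The member-high share differed by 9.63 percentage points (4.32 to 14.97) in T cells, 2.28 (-0.40 to 4.65) in NK cells and -4.70 (-7.31 to -2.14) in dendritic cells. It differed by -0.02 (-0.68 to 0.56) in monocytes and -4.47 (-7.39 to -1.53) in macrophages. Within the member-high cells alone, summed CPM hardly differed in dendritic cells (log2 ratio 0.00, -0.05 to 0.05), T cells (-0.06, -0.08 to -0.04) and macrophages (0.10, 0.05 to 0.16), and was higher in NK cells (0.39, 0.25 to 0.52). These cells were chosen by their member UMIs, which holds their level alike, so nothing is read from this. In the other cells of the gate the members had 1511 CPM in *Irg1*+/+ macrophages and 1134 in those labelled *Irg1*-/-, and 1194 and 962 in dendritic cells. In NK cells CPM averaged over cells in place of summed had a log2 ratio of 0.0072, and the NK cells that were not member-high had 1357 and 1228 CPM, lower in the library labelled *Irg1*-/-, so that the higher sum rests on its 22 member-high NK cells. The melanoma genes were lower in the library labelled *Irg1*-/- in all 5 gates. After thinning to 2000 UMIs and removal of every cell with a melanoma UMI among them, the ratios were 0.27 in T cells, 0.16 in NK cells, -0.54 in dendritic cells, -0.21 in monocytes and -0.46 in macrophages. Removal of such cells at full depth, which left a median of 1756 UMIs against 10131 in macrophages of the *Irg1*+/+ library, gave ratios of 0.068 in macrophages, -0.11 in dendritic cells, 0.56 in T cells and 0.24 in NK cells. The share with 3 or more UMIs then differed by 20.1 percentage points in macrophages and 7.96 in dendritic cells.

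Gene by gene, 21 of 36 members in the dendritic gate were at least 1.5-fold lower in the library labelled *Irg1*-/- and 0 were higher, where 7.6% of the 11172 genes with 20 or more UMIs were lower and 5.53% were higher by that much. The make-up of the dendritic gate also differed, with type 2 cells at 25.7% and 40.3% of it and type 1 cells at 29.1% and 21.8%. Within subsets the log2 ratio of summed CPM was -0.49 in type 1, -0.53 in type 2 and -0.27 in mature cells, beside -0.63 in the whole gate. In the macrophage gate 12 of 36 were lower (6.85% of all genes) and 0 were higher (5.07%), and in the NK gate 17 of 34 were higher (5.95%) and 0 lower (7.49%), and with 100 or more UMIs required 9 were higher. In the T gate 0 of 36 were higher (3.59%) or lower (6.45%), and in the monocyte gate 2 of 33 were higher (5.25%) and 3 lower (7%). The median log2 ratio of the members was -0.65 in dendritic cells, -0.51 in macrophages, 0.57 in NK cells, 0.09 in T cells and -0.10 in monocytes, beside medians of -0.05 to -0.03 over all genes. In T cells each gene differed by at most 0.49.

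The S and G2/M groups did not take equal parts in these differences. In dendritic cells the median log2 ratio was -0.37 over S members and -0.88 over G2/M members, and in NK cells 0.28 and 1.02, whereas in macrophages it was -0.55 and -0.45 and in T cells 0.20 and 0.03. In dendritic cells the S share was 8.75 percentage points (7.55 to 9.95) higher in the library labelled *Irg1*-/-, while it differed by -8.17 (-10.6 to -5.70) in NK cells, by 2.81 (2.16 to 3.46) in T cells and -0.71 (-1.89 to 0.47) in macrophages. As a mean over cells with 3 or more member UMIs the differences were 3.67 in dendritic cells, 4.22 in NK cells, 0.77 in T cells and 2.60 in macrophages. After thinning they were 6.53 (3.60 to 9.44) in dendritic cells, -2.24 (-6.19 to 1.77) in NK cells and 1.29 (-0.45 to 3.04) in T cells, the last 2 with intervals that included 0.

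**Figure D5:**
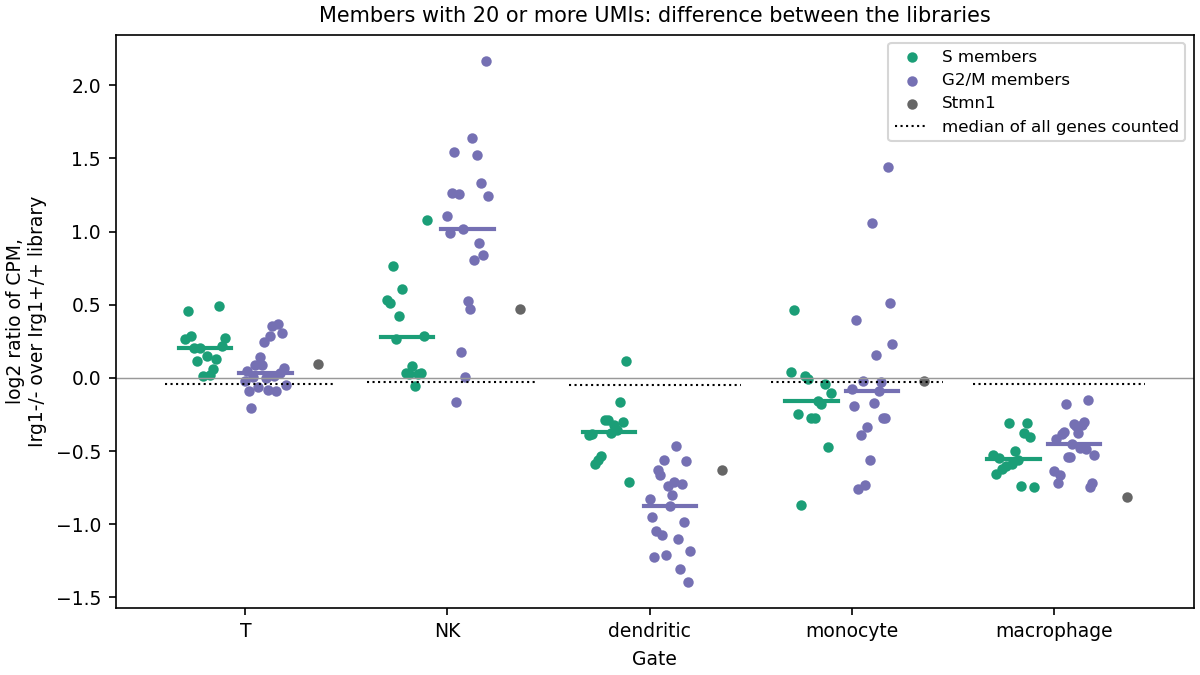
log2 ratio of CPM between the libraries, *Irg1*-/- over *Irg1*+/+ (vertical axis), for each member with 20 or more UMIs in the gate (points), by gate (horizontal axis), with S members, G2/M members and *Stmn1* apart (color). Bars are group medians and dotted lines medians of all genes counted. G2/M members lie lowest in the dendritic gate (median -0.88) and highest in the NK gate (1.02).

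In dendritic cells, *Bub1*, a kinase of the spindle checkpoint, had 29.1 CPM in the *Irg1*+/+ library and 11.02 in the other, a log2 ratio of -1.39 (-1.802 to -1.01), and *Cdc20* had 11.5 and 4.62 (-1.31, -1.96 to -0.71). *Cenpe*, a kinetochore motor, followed with 58.9 and 25.2 (-1.22, -1.49 to -0.97), and *Ccnb1*, cyclin B1, with 25.9 and 11.2 (-1.21, -1.62 to -0.82). Of all members only *Ccne2* was not lower, at 6.18 and 6.70 (0.12, -0.51 to 0.75), and *Pcna* was lower by the least, at 259 and 231 (-0.17, -0.26 to -0.07). The 6 lowest ratios in this gate were all of G2/M members, *Kif11* (-1.18) and *Nusap1* (-1.10) among them.

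In macrophages the lowest ratios were those of *Stmn1*, with 130 and 74.1 CPM (-0.81, -0.97 to -0.66), *Aurkb*, with 19.2 and 11.4 (-0.75, -1.16 to -0.35), *Pclaf*, with 119 and 70.9 (-0.75, -0.91 to -0.59), and *Mcm7*, with 35.8 and 21.4 (-0.74, -1.04 to -0.45). All 36 were below 0, and the intervals of 31, which do not cover the spread between cells, excluded it. *Aurka*, *Cdc20*, *Ube2c*, *Nusap1* and *Ccne2* had intervals that included 0, as in *Ube2c* with 57.6 and 50.8 (-0.18, -0.39 to 0.02).

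In NK cells the G2/M members *Bub1*, with 3.78 and 18.4 CPM (2.17, 0.95 to 3.98), *Hmmr*, with 6.04 and 19.8 (1.64, 0.61 to 3.01), and *Cenpf*, with 6.80 and 20.7 (1.54, 0.56 to 2.82), had the highest ratios. *Mki67* had 74.8 and 162 (1.11, 0.79 to 1.45), *Top2a* 105 and 209 (0.99, 0.71 to 1.27) and *Pclaf*, the S member with the highest ratio, 58.9 and 125 (1.08, 0.72 to 1.47). Of the helicase genes, *Mcm3* had 39.3 and 60.2 (0.61, 0.15 to 1.11), while little difference was seen for *Mcm6* with 108 and 115 (0.08, -0.21 to 0.39) and *Mcm5* with 80.8 and 82.3 (0.02, -0.33 to 0.38). *Anln*, with 0.76 and 7.64, and *Aurka*, with 6.80 and 3.60, had too few UMIs to be counted. A UMI was found in 12.98% and 11.99% of NK cells for *Mki67*, 20.7% and 15.2% for *Top2a* and 9.94% and 10.2% for *Pclaf*. For *Bub1* it was 1.105% and 3.03%, for *Hmmr* 2.21% and 3.19%, and for *Cenpf* 1.93% and 3.19%. *Mki67* and *Top2a* were thus higher in CPM without a larger share of cells. The intervals of these ratios do not cover the spread between cells.

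In T cells the highest ratios were those of *Tk1*, with 87.9 and 123 CPM (0.49, 0.33 to 0.65), *Rrm2*, with 261 and 358 (0.46, 0.36 to 0.55), *Plk1*, with 40.8 and 52.8 (0.37, 0.13 to 0.61), and *Anln* (0.36, -0.02 to 0.73). *Cenpf*, with 115 and 99.3 (-0.21, -0.37 to -0.05), was the lowest. The 2 monocyte genes that were higher were *Aurkb*, with 2.45 and 6.89 (1.44, 0.44 to 2.68), and *Ccnb2*, with 6.36 and 13.4 (1.06, 0.40 to 1.79), and those that were lower were *Tyms*, with 8.56 and 4.66 (-0.87, -1.70 to -0.08), *Cenpf*, with 4.16 and 2.43 (-0.76, -1.97 to 0.38), and *Ube2c*, with 18.6 and 11.1 (-0.73, -1.27 to -0.22). Monocyte values were at the background, and the counts behind these ratios are small.

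Cell cycle genes outside the members, on lists that do not overlap with them, differed between the libraries as well. In dendritic cells 0 of 32 other S genes counted were at least 1.5-fold higher in the library labelled *Irg1*-/- and 6 were lower, and of 35 other G2/M genes 0 were higher and 15 lower, beside 5.53% of all genes higher and 7.6% lower. Summed CPM of the G2/M list was 2159 and 1607 there (log2 ratio -0.43, -0.46 to -0.39), and that of the S list 919.7 and 745 (-0.30, -0.36 to -0.25). In macrophages the S list had more genes past the limit, 0 higher and 17 of 32 lower with sums of 978 and 729 (-0.42, -0.48 to -0.37), and the G2/M list fewer, 1 higher and 4 of 35 lower with sums of 1801 and 1467 (-0.30, -0.33 to -0.26), beside 5.07% of all genes higher and 6.85% lower. In NK cells 8 of 28 other G2/M genes were higher and 0 lower, with sums of 1798 and 2211 (0.30, 0.23 to 0.37). Of the other S genes 6 of 29 were higher and 1 lower, with sums of 1112 and 1209 (0.12, 0.03 to 0.21), beside 5.95% of all genes higher and 7.49% lower. In T cells none of either list passed the limit. In monocytes 0 of 28 other S genes were higher and 4 lower, and 0 of 28 other G2/M genes higher and 5 lower, beside 5.25% of all genes higher and 7% lower, while the members there were mixed. Genes that act in G1, the cyclins, kinases and E2F factors, were not lower in dendritic cells, with sums of 799.9 and 928 (0.21, 0.16 to 0.27). Genes that hold the cycle back had 2232 and 2733 CPM in macrophages (0.29, 0.26 to 0.32), with 3 of 16 higher and 0 lower. Their sum was also higher in the 72 and 190 neutrophils, with 4504 and 5631 CPM (0.32, 0.20 to 0.45), where genes passed the limit in both directions. The log2 ratio of the sum was 0.14 in dendritic cells, 0.12 in monocytes, 0.10 in NK cells and 0.01 (-0.03 to 0.04) in T cells. There 1 of 16, 1 of 16, 0 of 15 and 0 of 17 were higher, near the shares of all genes, and 0 were lower. In neutrophils the sum of the other G2/M genes was lower, with 1182 and 977 CPM (-0.28, -0.53 to -0.02), and genes passed the limit in both directions. The share of all genes past the limit was not taken in neutrophils, so no counts are given for them. The lists rest on the same cells as the members and are not independent of them.

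The other genes of the cell cycle, from the same lists, were higher in the member-high cells as well. Of the other S genes, 31 of 32 counted were at least 1.5-fold higher in member-high T cells than in the remaining T cells in both libraries, with 10.3% of all genes so, and of the other G2/M genes 30 of 35. In dendritic cells it was 31 of 32 and 33 of 35 (12.1% of all genes), in macrophages 27 of 32 and 31 of 35 (9.67%), and in NK cells 25 of 29 and 20 of 28 (12.4%), and none of these genes was lower in both libraries. *Clspn*, which relays stalled forks to the checkpoint, had 94.4 against 8.98 CPM in T cells of the *Irg1*+/+ library (log2 3.37, 2.85 to 3.99) and 111 against 6.17 in the other (4.09, 3.23 to 5.31). *Ckap2l*, a spindle protein, had 82.5 against 3.41 (4.54, 3.74 to 5.61) and 70.4 against 4.80 (3.78, 2.81 to 5.20). At the other end *Ubr7*, with 45.9 against 30.6 (0.58) and 39.2 against 25.4 (0.61), and *Ctcf*, with 220.5 against 174 (0.34) and 216 against 169 (0.35), were among the genes with the smallest folds of the S and the G2/M list in T cells. In macrophages the leading gene was *Ect2*, which places the cleavage furrow, with 51.7 against 3.39 (3.91) and 75.7 against 3.27 (4.51). The counts depended on the limit. For a split of cells at 3 or more member UMIs the share of all genes past the limit was not taken. No excess over all genes is therefore read from its counts, here and below. With that split, 25 of 32 and 29 of 35 genes were higher in T cells. It was 17 of 32 and 19 of 35 in dendritic cells, and 8 of 29 and 4 of 28 in NK cells. In macrophages it was 12 of 32 and 13 of 35, with 1 gene of each list lower. Such differences describe the cells chosen by the members and are not independent of the choice.

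Genes for chromatin and microtubules were higher in member-high cells in 10 of 10 cases in T and dendritic cells, 9 of 10 in macrophages and 8 of 10 in NK cells. Over all genes 10.3% were higher in T cells, 12.1% in dendritic cells, 9.67% in macrophages and 12.4% in NK cells. *Tuba1b*, an alpha-tubulin, had 693 against 145 CPM in T cells of the *Irg1*+/+ library (2.26, 2.12 to 2.41) and 685 against 137 in the other (2.32, 2.12 to 2.54). *H2ax*, the histone variant marked at DNA breaks, had 254 against 37.1 (2.77) and 256 against 36.9 (2.80) in dendritic cells. *Ptma*, with 1894 against 1181 (0.68) and 1728 against 1181 (0.55), was the weakest in macrophages. The counts depended on the limit. With cells split at 3 or more member UMIs instead, 10 of 10 were higher in T cells but 2 of 10 in dendritic cells. In macrophages and NK cells it was 1 of 10 each. The share of all genes was not taken for this split.

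The controls of G1 and of the G2/M genes were split. *Foxm1*, the activator of mitotic genes, was higher in T cells, with 49.6 against 6.50 CPM (2.90, 2.28 to 3.65) and 46.8 against 5.49 (3.01, 2.08 to 4.33), in dendritic cells, with 51.4 against 5.79 (3.14) and 56.2 against 3.97 (3.81), and in macrophages, with 45.96 against 6.41 (2.84) and 50.5 against 4.82 (3.39). *Lin37*, a MuvB subunit present outside the cycle too, was not, with 17.2 against 13.6 (0.33, -0.21 to 0.90) and 19.3 against 16.5 (0.21, -0.47 to 0.97) in T cells. Of the 6 genes of that list 3 were higher in T cells and macrophages and 4 in dendritic cells, and 2 of 5 in NK cells, where 1 was lower. The shares of all genes that were higher were 10.3% in T cells, 9.67% in macrophages, 12.1% in dendritic cells and 12.4% in NK cells. Of 12 G1 cyclins, kinases and E2F genes, 7 were higher and 2 lower in T cells (14% of all genes were lower in both libraries), 8 and 1 in dendritic cells (10.1%), 5 and 0 in macrophages (4.4%) and 7 and 1 in NK cells (8.88%). *Ccne1*, cyclin E1, led the list in the T, NK, dendritic and macrophage gates, with 66.2 against 9.91 (2.72) and 77.1 against 10.3 (2.86) in T cells. *Ccnd2*, cyclin D2, which acts before the choice to divide, was lower in member-high cells, with 131 against 355 (-1.44, -1.67 to -1.22) and 251 against 475 (-0.92, -1.16 to -0.68) in dendritic cells. With cells split at 3 or more member UMIs instead, 6 of the 12 G1 genes were higher and 1 lower in T cells. It was 3 and 0 in dendritic cells, 2 and 0 in macrophages and 5 and 0 in NK cells. Of the G2/M factors 4 of 6 were then higher in T cells, 1 in macrophages, 0 in dendritic cells and 0 of 5 in NK cells. These counts stand without the share of all genes, which was not taken for this split.

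For genes that hold the cycle back, counts were small. In T cells 2 of 17 were higher and 5 lower, in NK cells 2 and 4 of 15, and in dendritic cells and macrophages 4 and 2 of 16. Over all genes 10.3% were higher and 14% lower in T cells, 12.4% and 8.88% in NK cells, 12.1% and 10.1% in dendritic cells and 9.67% and 4.4% in macrophages. The higher counts in T and NK cells and the lower count in dendritic cells were near those shares. *Cdkn2c*, an inhibitor of CDK4 and CDK6, was among the higher ones, with 57.5 against 9.68 CPM (2.57, 2.10 to 3.04) and 62.1 against 8.09 (2.95, 2.25 to 3.62) in macrophages, as was *Rbl1*, the pocket protein p107, with 176 against 51.5 (1.83, 0.70 to 2.71) and 183 against 44.2 (2.06, 1.49 to 2.60) in NK cells. *Btg1*, an antiproliferative gene of resting lymphocytes, was lower, with 203 against 528 (-1.38, -1.49 to -1.26) and 169 against 431 (-1.35, -1.52 to -1.19) in T cells and 320 against 785 (-1.26) and 266 against 677 (-1.33) in NK cells. Its relative *Btg2* had 154 against 385 (-1.32, -1.53 to -1.12) and 252 against 627 (-1.31, -1.58 to -1.06) in macrophages. With cells split at 3 or more member UMIs instead, 1 of these genes was higher and 5 lower in T cells. It was 0 and 2 in NK cells, 0 and 1 in dendritic cells and 1 and 0 in macrophages, with the share of all genes not taken for this split.

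Receptor and state genes described which cells these were. None of the 12 growth factor and cytokine receptors was higher in member-high cells in either lymphocytes or myeloid cells by the same rule, and 3 were lower in T cells, 2 in NK cells, 5 in dendritic cells and 2 in macrophages, where 14%, 8.88%, 10.1% and 4.4% of all genes were lower. The counts in T and NK cells were not far from those shares. *Il7r*, the interleukin-7 receptor of resting and memory T cells, had 115 against 782 CPM (-2.77, -2.91 to -2.63) and 101.02 against 805 (-2.99, -3.17 to -2.82) in T cells, the lowest value of its list. Of the T cell state genes 0 of 12 were higher and 5 lower in T cells (14% of all genes lower). With cells split at 3 or more member UMIs instead, 6 of 12 were higher and 3 lower. In member-high T cells *Gzmb*, granzyme B, had 2910 against 2034 (0.52, 0.47 to 0.56) and 3727 against 2557 (0.54, 0.49 to 0.60). *Tcf7*, a factor of naive and memory-like cells, had 43.2 against 201.2 (-2.22) and 20.8 against 184.5 (-3.14). In dendritic cells *Ccr7*, which guides mature cells to lymph nodes, had 104 against 981 (-3.23, -3.49 to -2.99) and 182 against 932 (-2.35, -2.64 to -2.09). In macrophages 0 of 12 macrophage and monocyte state genes were higher and 7 lower (4.4% of all genes lower), and *C1qa*, a complement gene, had 1399 against 1200 (0.22) and 1703 against 1183 (0.53). The split at 3 or more member UMIs gave 0 higher and 2 lower there. For the 12 receptors it gave 0 higher and 3 lower in T cells and 1 and 0 in NK cells. In dendritic cells it gave 1 and 2, and in macrophages 0 and 0. All counts from this split stand without the share of all genes, which was not taken. Member-high macrophages kept their own markers, with 11413 against 11149 CPM summed over 8 macrophage markers in the *Irg1*+/+ library and 12286 against 11871 in the other. As CPM, those of the other gates had less of theirs than the rest. It was 3034 against 3984 CPM and 2907 against 3652 over 4 markers in T cells, and 2251 against 6369 and 1990 against 4941 over 8 markers in dendritic cells. In NK cells it was 2208 against 3913 and 2008 against 4388 over 6 markers. The 6 member-high NK cells of the *Irg1*+/+ library also had 704 against 312 CPM of the 4 T cell markers, and the 22 of the other 266 against 286. *Spp1*, a macrophage gene that is not among the 8 markers, had 3999 against 496 CPM in the 6 cells. The 8 macrophage markers were lower, with 736 against 990 CPM in the 6 and 942 against 1260 in the 22. In UMIs per cell, member-high cells, which were deeper, did not have fewer of their own markers. The medians were 42 against 17 and 45 against 14 in T cells, and 24.5 against 13 and 18 against 13 in NK cells. In dendritic cells they were 33 against 30.5 and 23 against 23. The part of doublets in these values was not tested.

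Outside the lists, the genes nearest to the members by a rule on the lowest fold depended on which cells were compared. Among 5337 genes with 100 or more UMIs, the lowest log2 fold of member-high cells over the rest, taken over the T, NK, dendritic and macrophage gates and both libraries, was highest for *Smc2*, a condensin subunit, at 2.60. *Incenp* (1.68), *Rfc5* (1.56), *Plk4* (1.51), *Lig1* (1.41), *Ezh2* (1.32), *Rpa3* (1.32), *Pmf1* (1.29), *Topbp1* (1.24) and *Tfdp1* (1.22) came next, most of them known for replication or chromosome segregation. *Smc2* had 423 against 53.9 CPM in T cells of the *Irg1*+/+ library and 261 against 39.5 in macrophages. With cells of 3 or more member UMIs in place of member-high cells, over 5 gates and 5203 genes, the leading genes were *Psat1* (0.33), *Rbbp7* (0.31), *Cxcl1* (0.25), *Tfdp1* (0.23), *Sars* (0.22), *Eif3i* (0.19), *Fkbp3* (0.18), *Aldh9a1* (0.17), *Lgals1* (0.16) and *Rpn1* (0.16), of which only *Tfdp1*, the partner of E2F factors, was in the first set.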

How the data were processed

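BD Rhapsody libraries of sorted cells were sequenced for both genotypes. The authors deposited raw UMI counts per gene and cell, made with fastp, UMI-tools and STAR on the mouse genome (GRCm38), and the submitters' processing notes also name CASAVA 1.8 and Seurat. Total counts were 43617546 and 36432067 per library, and intervals cover counting error only.

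A cell was used if more than 200 genes were detected and less than 10% of its UMIs came from mitochondrial genes, which left out 124 and 102 cells, and those genes were then dropped. For each of 11 gates, the mean of log counts per 10000 over its markers was scaled over cells, and a cell needed 3 marker UMIs and a lead of 0.5 SD over the next gate. This scoring rule and the limit of 10 of 2000 UMIs were set after the counts had been seen, and the members, lists and markers were chosen with earlier results of these data known. Scrublet called 0 doublets, so all cells were kept and its top 5% of scores were left out as an alternative only.

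CPM were sums per gate over the gate's UMIs. Shares have Clopper-Pearson, sums Poisson, differences Newcombe and ratios exact conditional intervals (0.5 UMIs added). Called means 1.5-fold among genes with 20 or more UMIs. With 1 library per genotype no test was made. Named genes were all members, the genes of each list with the largest and smallest fold, and the 10 others whose lowest fold was highest. Values of some genes are not reported here. The lists used member-high cells and not the planned split at 3 or more member UMIs, since those cells were most of a gate. Steps were tested on simulated data. Software was Python 3.11.15, numpy 2.4.6, scipy 1.17.1, pandas 2.3.3, scanpy 1.11.5, R 4.3.3 and, for TMM factors, edgeR 4.0.16.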

Additional observations from a re-analysis of the deposited data

Results flagged for a closer look

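The log2 ratio of summed member CPM between the libraries (*Irg1*-/- over *Irg1*+/+) went in opposite directions in different cell types, at 0.12 in T cells and 0.46 in NK cells but -0.63 in dendritic cells, -0.10 in monocytes and -0.49 in macrophages. The difference between cell types was not tested, since each genotype has 1 library.

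Cell cycle UMIs were also found in cells outside the comparisons. In the 124 and 102 cells with 10% or more mitochondrial UMIs the members reached 2922 CPM (2671 to 3190) for *Irg1*+/+ and 2250 CPM (1995 to 2528) for *Irg1*-/-, and in the 2032 and 1668 cells that met no gate 1974 (1946 to 2003) and 1646 (1619 to 1674). All 4 values were above the neutrophils of the same library, at 741 and 676.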

How the results depend on the processing

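Of the values that answer a comparison, 231 stayed within their counting interval (counts of genes within 1.5-fold) under the alternatives, 93 moved further and 18, whose interval had excluded 0, changed direction. None moved further without the mitochondrial filter, with stricter gates, without *Pclaf* and *Ccna2*, without *Stmn1* or without the barcodes found in both libraries. Those that did are given next by alternative, with differences in percentage points and "opposite" for such a change. After thinning to 2000 UMIs, the library difference in the share was 2.76 (opposite) for T, -8.50 for dendritic and -15.8 for macrophage. Here the log2 ratio of the share to macrophages in the *Irg1*+/+ library was 0.51 for T, 0.095 (opposite) for NK, -0.37 for dendritic and -1.10 for monocyte, while that ratio in the other library was 1.16 (opposite) for T, 0.53 (opposite) for NK and -0.96 for monocyte. Under it the difference in the S share was 1.29 for T, -2.24 for NK, 6.53 for dendritic, 3.51 for monocyte and -2.87 for macrophage, while the log2 ratio of summed CPM was 0.20 for T, 0.11 for NK, -0.50 for dendritic, -0.21 for monocyte and -0.44 for macrophage. With 10 or more of 2000 UMIs, the library difference in the share was 9.63 (opposite) for T and 2.28 (opposite) for NK. Here the log2 ratio of the share to macrophages in the *Irg1*+/+ library was 1.81 for T, -2.22 for NK, 0.072 for dendritic and -6.04 for monocyte, while that ratio in the other library was 3.14 (opposite) for T, -0.16 for NK, 0.071 (opposite) for dendritic and -5.28 for monocyte. Without cells that held a melanoma UMI at their full depth, the library difference in the share was -2.96 for T, 7.96 for dendritic and 20.1 for macrophage. Here the log2 ratio of the share to macrophages in the *Irg1*+/+ library was 0.56 for T, 0.38 (opposite) for NK, 0.33 for dendritic and 0.18 (opposite) for monocyte, while that ratio in the other library was 0.016 (opposite) for T, -0.19 for NK, 0.012 (opposite) for dendritic and -0.29 for monocyte. Under it the difference in the S share was 1.82 for T, -2.22 for NK and -7.18 for macrophage, while the log2 ratio of summed CPM was 0.56 for T, 0.24 for NK, -0.11 for dendritic and 0.068 (opposite) for macrophage. With thinning and then removal of cells with a melanoma UMI among the 2000, the library difference in the share was 4.05 (opposite) for T, -8.31 for dendritic and -15.5 for macrophage. Here the log2 ratio of the share to macrophages in the *Irg1*+/+ library was 0.53 for T, 0.13 (opposite) for NK, -0.30 for dendritic and -1.11 for monocyte, while that ratio in the other library was 1.22 (opposite) for T, 0.62 (opposite) for NK and -0.91 for monocyte. Under it the difference in the S share was 1.49 for T, -4.45 for NK, 5.64 for monocyte and -2.79 for macrophage, while the log2 ratio of summed CPM was 0.27 for T, 0.16 for NK, -0.54 for dendritic, -0.21 for monocyte and -0.46 for macrophage. With 5 or more UMIs, the library difference in the share was -5.22 for macrophage. Here the log2 ratio of the share to macrophages in the *Irg1*+/+ library was -0.094 for T, -0.79 for NK, -0.25 for dendritic and -0.97 for monocyte, while that ratio in the other library was -1.17 for NK, -0.33 for dendritic and -1.05 for monocyte. With 2 or more UMIs, the log2 ratio of the share to macrophages in the *Irg1*+/+ library was -0.012 for NK and -0.13 for monocyte and that ratio in the other library was -0.16 for NK, -0.026 for dendritic and -0.17 for monocyte. With cell types from clusters, the log2 ratio of the share to macrophages in the *Irg1*+/+ library was -0.16 for T, -0.36 for NK and -0.23 for dendritic. Here that ratio in the other library was -0.26 for T, -0.57 for NK and -0.22 for dendritic, while the difference in the S share was 7.21 for dendritic, 4.27 for monocyte and 0.84 for macrophage. Under it the log2 ratio of summed CPM was 0.56 for NK, -0.57 for dendritic and -0.41 for macrophage. With cells of 2 types kept, the difference in the S share was 0.91 for macrophage and the log2 ratio of summed CPM was 0.55 for NK and -0.56 for dendritic. As the mean of each cell's CPM, the log2 ratio of summed CPM was 0.063 for T, 0.0072 for NK, -0.52 for dendritic and -0.45 for macrophage. As a mean over cells with 3 or more member UMIs, the difference in the S share was 0.77 for T, 4.22 (opposite) for NK, 3.67 for dendritic and 2.60 for macrophage. With TMM factors, the log2 ratio of summed CPM was 0.16 for T and -0.58 for dendritic. With mitochondrial genes under 5%, the difference in the S share was 4.002 for T. Without the top 5% of doublet scores, the log2 ratio of summed CPM was -0.59 for dendritic. With 100 or more UMIs required, 9 NK members were higher, and in monocytes 0 were higher and 1 lower, and with no filter on low counts 1 NK member was lower. The 10 of 2000 limit and both removals of melanoma cells were chosen after seeing the data, and the removal of barcodes found in both libraries was not planned either. Removal at full depth also changed the depth of the cells, to a median of 1756 UMIs from 10131 in macrophages of the *Irg1*+/+ library. For all these alternatives the cause was not tested.

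Counting error is the limit where few cells or UMIs stand behind a value, as for the 6 and 22 member-high NK cells, the 22 and 76 neutrophils of 2000 UMIs and the sparse monocyte genes. The spread between mice cannot be seen, because each genotype has 1 pooled library. No library could be left out. No paired analysis was possible because each genotype has 1 library. Cells were typed by a few markers, and 2032 and 1668 cells met no gate.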

Other observations

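Among small gates, B cells had 1021 CPM of the members (889.7 to 1166; 69 cells) in the *Irg1*+/+ library and 1631 (1472 to 1802; 74 cells) in the library labelled *Irg1*-/-, where 1 member-high cell held 49.4% of the member UMIs of the gate. Plasmacytoid dendritic cells had 1170 (1074 to 1273; 72 cells) and 1654 (1532 to 1784; 62 cells), with 1 and 2 member-high cells that held 19.3% and 56.0%. Mast cells numbered 6 and 9, and 2 of those in the *Irg1*+/+ library were member-high.

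In clusters made without the listed cell cycle genes, the share of member-high cells in their main cluster differed between gates. It was 50% and 63.6% in the NK gate, of 6 and 22 cells, and 74.0% and 65% in the dendritic gate. In both gates this was not the main cluster of all cells of the gate. The main one held 91.2% and 92.7% of NK cells and 42.4% and 37.7% of dendritic cells. In the macrophage gate 98.3% and 96.2% of them were in 1 cluster, which held 48.7% and 60.4% of all macrophages, and in the T gate 73.0% and 80.7% were in 1 cluster. That cluster was the main one of all T cells in the library labelled *Irg1*-/-, with 36.6% of them, while in the *Irg1*+/+ library another cluster was, with 33.7%.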
